A study of Mus musculus with 17 samples.

Results

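The comparison described here sets 7 mouse kidney RNA sequencing libraries labelled Gcgr shRNA against 6 labelled Ctr shRNA, 13 of the 17 libraries of a study on glucagon and diabetic kidney disease. The 13 are all the libraries with these labels, and no measured value decided which libraries entered. The other 4 libraries, labelled control with a wild-type genotype, were not fitted in the main comparison and give levels beside the results with no test. The comparison was chosen with earlier results of these data known. A repeat without the Ctr shRNA library numbered 20 was set because that library was already known to hold fat and urothelial transcripts. Gcgr encodes the glucagon receptor, and the hairpin against it was meant to act in proximal tubule epithelial cells, as the series describes its mice.

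The Gcgr shRNA group carries Gcgr shRNA as its genotype and the abbreviation DKD, for diabetic kidney disease, in its titles. The Ctr shRNA group carries Ctr shRNA as its genotype, while its titles say DKD and Vehicle, and which of these, a control hairpin or a vehicle, the mice were given is uncertain. Both groups thus share the DKD title, and all 17 samples are given as kidney. The sources used here do not give how the disease was induced, how the shRNA was delivered, or the strain, age and sex of the mice. A library is called by its group and its title's number. No label assigns the libraries to separate animals, and the p-values therefore measure only the spread from sample to sample.

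Glucagon is a pancreatic hormone that binds a receptor coupled to cyclic AMP, and its best known actions are the release of glucose and the burning of fat in liver. In kidney the proximal tubule takes most of its energy from fatty acid oxidation, and lipid in tubule cells is a known feature of diabetic kidney disease. A short hairpin RNA is cut in the cell into a small RNA that directs the breakdown of a matching transcript, so a working hairpin lowers its target's RNA in the cells that carry it. RNA of whole kidney mixes all cell types, and fewer cells of a type and less RNA per cell cannot be told apart in it.

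Reads recovered from the FPKM values (fragments per kilobase of gene, scaled by a size of each library) came to 13997657 to 17107876 per library. The size that the values imply differed from these reads. It was 1.88e+07 for Ctr shRNA 20 (16345727 reads) and 1.46e+07 for Ctr shRNA 19 (15316060 reads), and the reason was not tested. Kidney markers were present in all 13 libraries, with Lrp2 of the proximal tubule at 84.0 to 124 FPKM, Umod of the thick ascending limb at 283 to 887 and Nphs1 of podocytes at 0.409 to 1.87. Ctr shRNA 20 stood apart, at 46.9 on the first principal component where the other 12 lay between -16.1 and 5.16. In it 12 fat cell markers summed to 812 FPKM, against 11.01 to 56.7 in the other 12 libraries, and all 12 were highest there. This sum leaves out the listed gene Pck1, which is a tubule enzyme as well. Its 12 urothelial markers summed to 516 FPKM against 13.8 to 48.6, and 11 of them were highest there. Its 13 inner medulla and papilla markers summed to 1875 against 648 to 913, and 9 of them were highest there. The defining fat gene Adipoq was at 45.3 FPKM in it and at 0 to 2.43 elsewhere, the urothelial gene Upk3a at 56.8 against 0 to 3.23, and the medullary aldose reductase gene Akr1b3 at 162 against 6.09 to 14.4. Gcgr shRNA 31 stood apart on the second component, at 33.5. Counts and medians of gene lists are given below with their values without Ctr shRNA 20 where that library moves them.

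**Figure D1:**
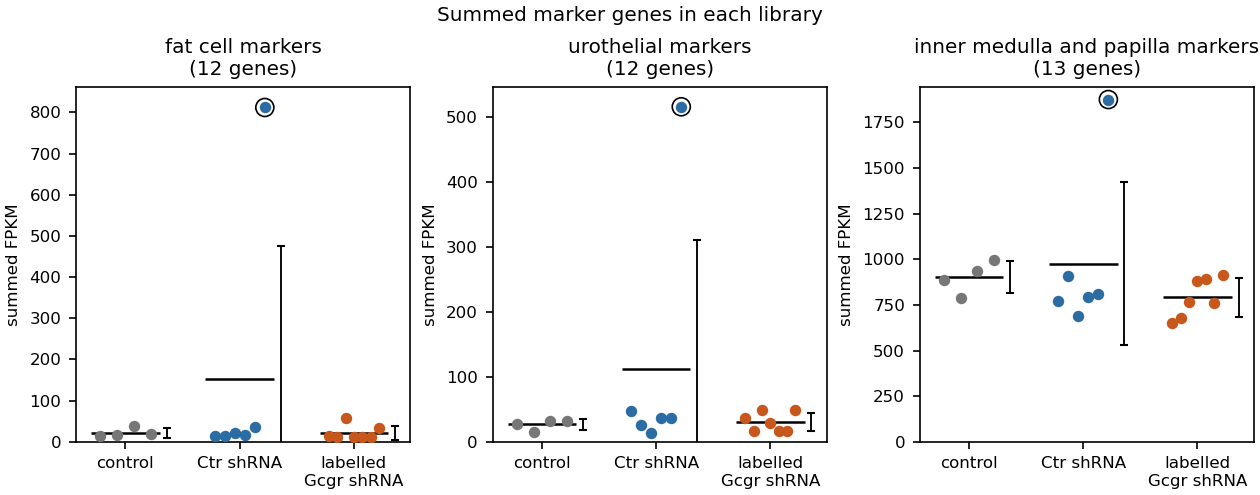
Summed FPKM of fat cell, urothelial, and inner medulla and papilla markers, on linear axes from 0, in each control, Ctr shRNA and labelled Gcgr shRNA library; points are libraries, horizontal lines group means and vertical bars SD, cut off at 0. The ringed point is Ctr shRNA 20, which lies at 812, 516 and 1875 FPKM, above every other library in each panel. The fat cell sum leaves out Pck1.

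Gcgr itself, on chromosome 11 from 120530699 to 120538986 (GRCm38, plus strand), was measured first, as the transcript that the hairpin should lower. In the Ctr shRNA libraries 1, 4, 6, 8, 19 and 20 it stood at 10.3, 10.6, 8.80, 11.1, 11.8 and 5.89 FPKM. In the libraries labelled Gcgr shRNA 13, 15, 29, 31, 32, 34 and 35 it stood at 11.02, 11.4, 14.1, 11.7, 15.7, 13.2 and 14.0 FPKM. The 2 groups overlapped, the lowest library of all was Ctr shRNA 20, and the labelled Gcgr shRNA libraries lay mostly above the Ctr shRNA libraries, against the direction of the label. Their means were 13.02 ± 1.70 (SD, n = 7) and 9.74 ± 2.14 (SD, n = 6) FPKM, and control kidneys held 20.8 ± 2.42 (SD, n = 4). The difference in mean log2(FPKM + 1), labelled Gcgr shRNA minus Ctr shRNA, was 0.40, with p = 0.00816 in an exact two-sided permutation test over the 1716 possible assignments (the smaller tail doubled). Without Ctr shRNA 20 the difference was 0.28 with an exact permutation p = 0.0177. In the fit across all genes Gcgr was not called (limma, adjusted p = 0.63). The reads cover the whole kidney, so a loss in a part of the cells is not measured separately, and every direction below is drawn from libraries whose label this transcript goes against. Gcg, the gene of glucagon itself, gave 0 reads in the Ctr shRNA group and 2 in the other, and expression of it was not detectable at this depth.

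No member of the receptor's signalling route passed the adjusted test. Of 25 genes on the list of glucagon receptor and cyclic AMP genes 20 were tested. At an unadjusted p under 0.05, 3 were higher, Gcgr among them, and 1 was lower, where 3.28% of all genes were higher and 2.71% lower. Their median log2 fold change was -0.031, against -0.0047 over all genes. The counts were 2 and 1 and the median -0.019 without Ctr shRNA 20, and with sample weights the median was 0.015. The phosphodiesterase genes Pde4d and Pde4b, whose products break down cyclic AMP, averaged 1.59 and 1.10 FPKM in the libraries labelled Gcgr shRNA and 1.21 and 0.764 in Ctr shRNA. Creb1, the transcription factor that cyclic AMP activates, averaged 1.98 against 2.46 FPKM. None of these 3 passed the adjusted test (limma, adjusted p from 0.73 to 0.80).

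A single gene, Cyp24a1, passed an adjusted p of 0.05 among 12973 genes tested in the 13 libraries (0.00771%), and it rose. Leaving out Ctr shRNA 20 gave 2 such genes (0.0154%), Cyp24a1 higher and Tstd3 lower. At an unadjusted p under 0.05, 425 genes were higher (3.28%) and 351 lower (2.71%) in the libraries labelled Gcgr shRNA. Without Ctr shRNA 20 these counts were 361 (2.78%) and 419 (3.23%). The number expected by chance at that threshold is 649 genes, against 776 in both directions together, and 780 without Ctr shRNA 20. In 13 genes every labelled Gcgr shRNA library lay above every Ctr shRNA library (0.1%), and in 13 every one lay below (0.1%). Leaving out Ctr shRNA 20 made these 19 (0.146%) and 28 (0.216%). By chance such a separation in a given direction arises in 1 of 1716 assignments of the 13 libraries. It arises in 1 of 792 without Ctr shRNA 20, so a higher count is expected there from the smaller number of libraries. Fold changes were small across the transcriptome, with 98.1% of genes within 0.5 of 0 on the log2(FPKM + 1) scale, and 11 genes at least 2-fold higher and 14 at least 2-fold lower. Of those, 7 and 10 were still past 2-fold without Ctr shRNA 20. By sign alone 6286 of the 12973 genes lay above 0 and 6687 below (6187 and 6786 without Ctr shRNA 20). The sign counts of lists below stand beside that split.

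**Figure D2:**
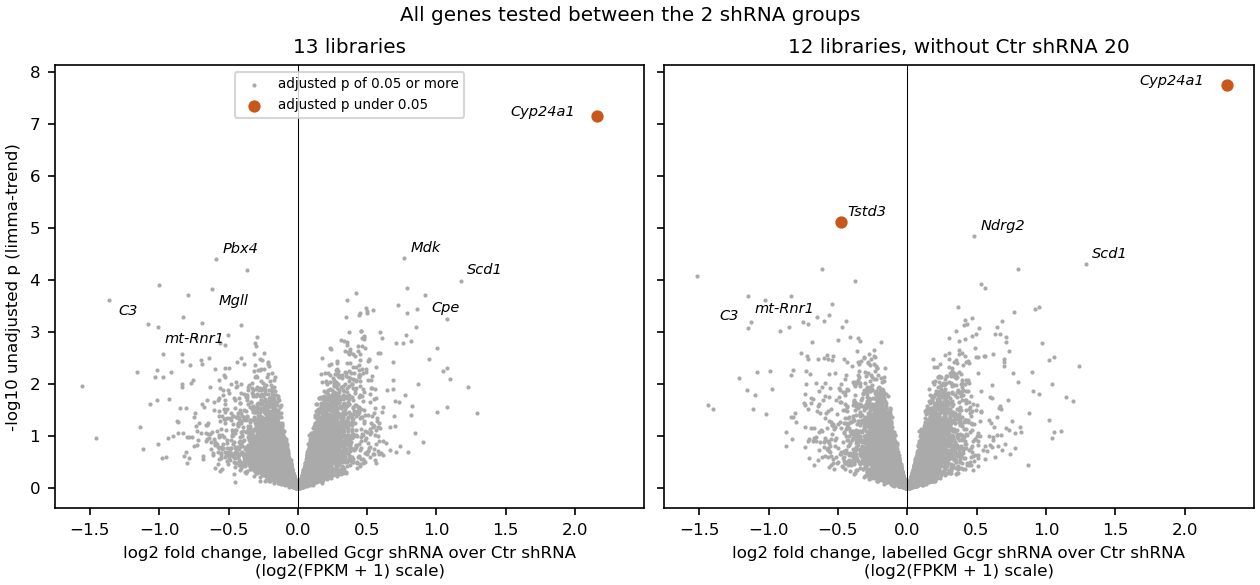
Log2 fold change on the log2(FPKM + 1) scale (labelled Gcgr shRNA over Ctr shRNA, horizontal) against -log10 of the unadjusted limma p (vertical) for the 12973 genes tested, in 13 libraries (left) and in 12 without Ctr shRNA 20 (right). Orange points have an adjusted p under 0.05, which are Cyp24a1 on the left and Cyp24a1 and Tstd3 on the right, and Cyp24a1 lies far from all other genes at 2.16 and 2.31.

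Cyp24a1 encodes the 24-hydroxylase of the proximal tubule that inactivates vitamin D, and it lies on chromosome 2 from 170482708 to 170497145 (GRCm38, minus strand). Its level in Ctr shRNA 1, 4, 6, 8, 19 and 20 was 6.81, 9.79, 8.23, 5.29, 10.3 and 15.2 FPKM. In the libraries labelled Gcgr shRNA 13, 15, 29, 31, 32, 34 and 35 it was 28.5, 55.0, 35.1, 64.5, 41.1, 46.4 and 39.5 FPKM. All 7 lay above all 6 Ctr shRNA libraries, and the nearest Ctr shRNA library was Ctr shRNA 20. The log2 fold change was 2.16 ± 0.21 (SE), or 4.47-fold on the scale of FPKM + 1, with an adjusted p of 0.000927 (limma), from 3331 reads in Ctr shRNA and 17548 in the other group. Without Ctr shRNA 20 it was 2.31 ± 0.19 with an adjusted p of 0.000237 (limma). The control kidneys spread widely, at 52.1 ± 45.0 FPKM (SD, n = 4), around the mean of 44.3 ± 12.2 (SD, n = 7) in the libraries labelled Gcgr shRNA. With the control libraries also in the fit, and so their wide spread in the error, the adjusted p of Cyp24a1 was 0.0581.

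The other genes of vitamin D and phosphate handling gave no further call. Of 26 listed genes 24 were tested, 19 had a log2 fold change above 0, and the median was 0.13. At an unadjusted p under 0.05, where 3.28% of all genes were higher and 2.71% lower, 3 were higher and none was lower. Cyp24a1 alone was higher without Ctr shRNA 20, 1 gene was then lower and the median was 0.085, or 0.035 with Gcgr shRNA 31 also left out. Cyp27b1, the enzyme that makes active vitamin D, ranged from 2.68 to 8.67 FPKM in Ctr shRNA and from 1.996 to 23.6 in the libraries labelled Gcgr shRNA, with a log2 fold change of 0.31 ± 0.42 (SE). Vdr, the vitamin D receptor, differed by 0.19 ± 0.20 (SE) and Slc34a1, the main phosphate transporter of the proximal tubule, by 0.04 ± 0.11 (SE). S100g, a vitamin D dependent calcium binding protein, had its highest value, 2608 FPKM, in the labelled Gcgr shRNA group and a difference of 0.14 ± 0.28 (SE). The 2 members other than Cyp24a1 at an unadjusted p under 0.05 were Casr, the calcium sensing receptor, at 5.36 against 3.76 FPKM, and Fgfr4, a fibroblast growth factor receptor, at 16.1 against 14.0 FPKM. Neither passed after adjustment (limma, adjusted p = 0.78 for both), and without Ctr shRNA 20 both had an unadjusted limma p above 0.05. The gene then lower was Gc, the vitamin D binding protein, at -0.32 ± 0.14 (SE), against -0.21 ± 0.16 (SE) in 13 libraries.

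**Figure D3:**
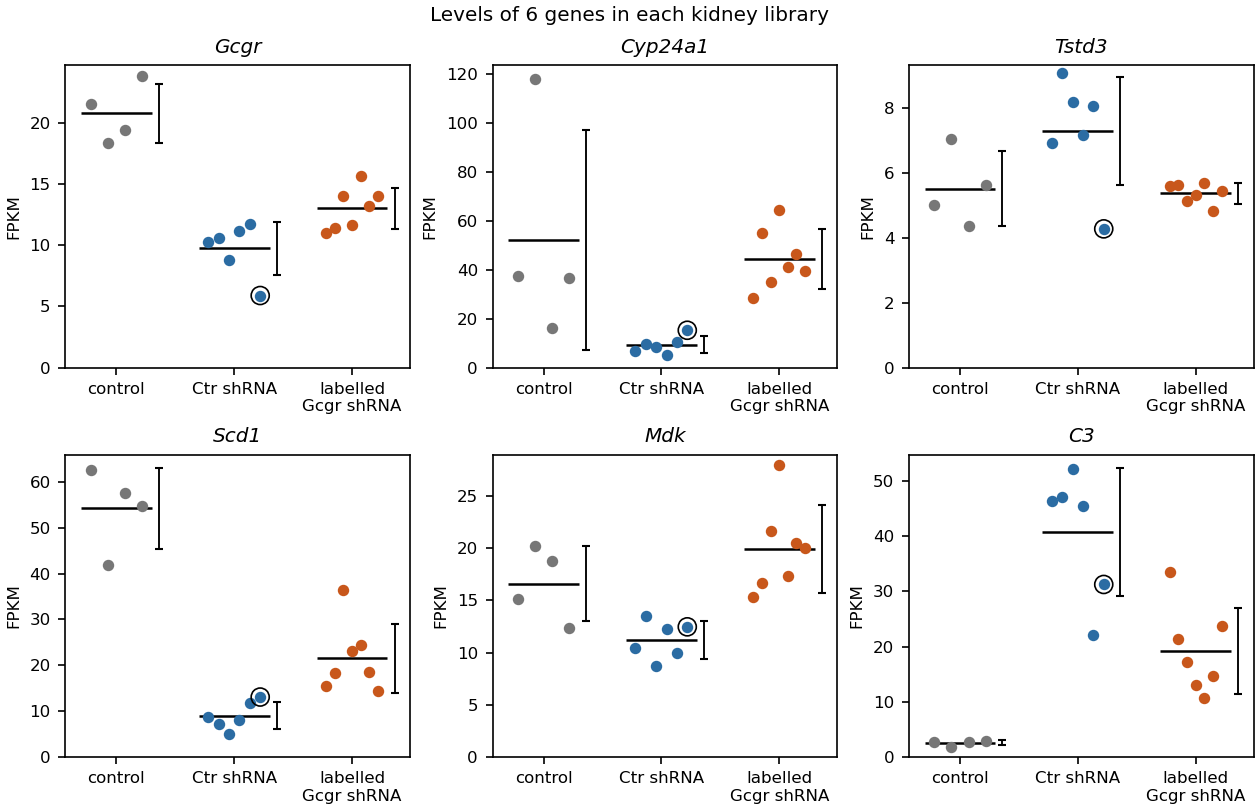
FPKM of Gcgr, Cyp24a1, Tstd3, Scd1, Mdk and C3 on linear axes from 0 in each control, Ctr shRNA and labelled Gcgr shRNA library; points are libraries, horizontal lines group means, vertical bars SD, and the ring marks Ctr shRNA 20. The labelled Gcgr shRNA points lie wholly above the Ctr shRNA points for Cyp24a1, Scd1 and Mdk, and overlap them for Gcgr, Tstd3 and C3.

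Tstd3, named for a thiosulfate sulfurtransferase like domain and on chromosome 4 from 21757382 to 21767212, was at 6.94, 9.08, 8.20, 7.18 and 8.08 FPKM in Ctr shRNA 1, 4, 6, 8 and 19. Ctr shRNA 20 held 4.28 FPKM, below every library labelled Gcgr shRNA, which ran from 4.81 to 5.70. With all 13 libraries the log2 fold change was -0.35 ± 0.12 (SE) and the adjusted p 0.662 (limma). Without Ctr shRNA 20 Tstd3 fell by 0.48 ± 0.07 (SE) with an adjusted p of 0.04996 (limma), at the edge of the threshold. The groups then did not overlap. That call ended when any one further library other than Ctr shRNA 1 was also left out.

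Ndrg2, a gene of the N-myc downstream regulated family, stood next to that edge. It measured 21.7, 20.8, 17.4, 21.1, 21.2 and 26.5 FPKM in Ctr shRNA and 27.5, 26.3, 27.1, 29.9, 32.9, 29.7 and 28.9 in the libraries labelled Gcgr shRNA, in the order of libraries above. Only Ctr shRNA 20 of the Ctr shRNA group reached the lowest of the other group. The log2 fold change was 0.42 ± 0.08 (SE) with an adjusted p of 0.233 (limma), and without Ctr shRNA 20 it was 0.48 ± 0.07 (SE) with an adjusted p of 0.0617 (limma).

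The series asks about lipid synthesis, and among the genes of fatty acid synthesis, desaturation and elongation the desaturases stood at one end. Of 24 members tested 5 were higher at an unadjusted p under 0.05, none was lower, and the median log2 fold change was 0.053 (6, none and 0.091 without Ctr shRNA 20). At such a p 3.28% of all genes were higher and 2.71% lower (2.78% and 3.23% without that library). Scd1, which makes monounsaturated fatty acids, was at 8.60, 7.09, 5.002, 8.13, 11.7 and 13.04 FPKM in Ctr shRNA. The libraries labelled Gcgr shRNA held 15.5, 18.3, 36.4, 23.1, 24.5, 18.4 and 14.3 FPKM, and the groups did not overlap. Control kidneys held 54.2 ± 8.85 FPKM (SD, n = 4). Scd1 had a log2 fold change of 1.17 ± 0.22 (SE) and did not pass, with an adjusted p of 0.233 (limma), and 0.132 without Ctr shRNA 20.

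The polyunsaturated fatty acid desaturases lay the same way at smaller size. Fads1, a front-end desaturase that makes arachidonic acid, was at 10.6 to 17.5 FPKM in Ctr shRNA and 17.004 to 19.3 in the libraries labelled Gcgr shRNA, with a log2 fold change of 0.37 ± 0.09 (SE). Fads2, which acts before it on the same route, had medians of 41.4 and 49.2 FPKM and a log2 fold change of 0.41 ± 0.13 (SE). Fads6, a further family member, had medians of 2.56 and 3.92 FPKM and a log2 fold change of 0.42 ± 0.12 (SE). None of the 3 passed (limma, adjusted p from 0.38 to 0.60). The enzymes that build the fatty acid chain lay closer to 0. Fasn, fatty acid synthase, averaged 7.78 ± 1.02 (SD, n = 7) against 8.02 ± 0.87 FPKM (SD, n = 6), a log2 fold change of -0.04 ± 0.08 (SE). Acaca, acetyl-CoA carboxylase, differed by 0.12 ± 0.10 (SE). Srebf1, the transcription factor of lipid synthesis, differed by 0.11 ± 0.17 (SE), and by 0.30 ± 0.08 (SE) without Ctr shRNA 20, which held its highest value of 13.3 FPKM (limma, adjusted p = 0.95 and 0.49).

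Genes of fatty acid use pointed more often downward, with none called. On the list of PPAR alpha targets and ketone body genes 11 of 15 tested members had a log2 fold change below 0. At an unadjusted p under 0.05, 4 were lower and 1 higher, and the median was -0.17 (5, 1 and -0.15 without Ctr shRNA 20). Of all genes 2.71% were lower and 3.28% higher at such a p (3.23% and 2.78% without that library). Ucp2, a carrier of the inner mitochondrial membrane, was at 78.2, 55.3, 61.2, 100.3, 58.8 and 68.1 FPKM in Ctr shRNA. The libraries labelled Gcgr shRNA held 71.8, 42.3, 52.7, 27.5, 45.9, 35.2 and 32.1 FPKM, and library 13 alone lay well inside the Ctr shRNA range. The log2 fold change of Ucp2 was -0.70 ± 0.20 (SE). Pdk4, the kinase that shuts off pyruvate dehydrogenase, had medians of 64.0 and 33.9 FPKM and a log2 fold change of -0.65 ± 0.25 (SE). Angptl4, an inhibitor of lipoprotein lipase, had medians of 78.7 and 51.3 FPKM and a log2 fold change of -0.69 ± 0.27 (SE). The adjusted p of these 3 ran from 0.53 to 0.77 (limma). Oxct1, which lets tissue use ketone bodies, lay the other way at 291 ± 39.9 (SD, n = 7) against 213 ± 51.3 FPKM (SD, n = 6), with control kidneys at 350 ± 20.6 (SD, n = 4). Ppara itself differed by 0.12 ± 0.22 (SE) and the coactivator gene Ppargc1a by 0.13 ± 0.12 (SE).

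Among mitochondrial fatty acid oxidation genes 17 of 25 tested lay below 0, with a median of -0.092 (20 and -0.14 without Ctr shRNA 20). Of all 12973 genes 6687 lay below 0 (6786 without that library). At an unadjusted p under 0.05, where 2.71% of all genes were lower and 3.28% higher, 5 were lower and 1 higher. Without Ctr shRNA 20 the counts were 5 and none, where 3.23% of all genes were lower and 2.78% higher. Decr1, an auxiliary enzyme for unsaturated fatty acids, averaged 77.1 against 93.3 FPKM, and Slc25a20, the carnitine carrier, 20.04 against 24.01 FPKM. Cpt1a, the entry step for long chains, differed by 0.13 ± 0.13 (SE), and Acadm, medium chain dehydrogenase, by -0.01 ± 0.13 (SE). On the peroxisomal and omega oxidation list 14 members lay above and 13 below 0, with 1 higher and 3 lower at an unadjusted p under 0.05 and a median of 0.0082. Its sign was not stable, since it was -0.049 without Ctr shRNA 20 (where 6 genes were lower and 1 higher), -0.029 after rescaling to the same total and -0.017 under limma voom. Cyp4a14, a fatty acid omega hydroxylase, ran from 207 to 632 FPKM in Ctr shRNA and from 83.3 to 513 in the libraries labelled Gcgr shRNA, where library 13 was the highest. Its log2 fold change was -1.06 ± 0.42 (SE), and that of its near relative Cyp4a10 was -0.43 ± 0.19 (SE), with reads that may be shared between the family's members. Acot3, a peroxisomal acyl-CoA thioesterase, averaged 6.504 ± 1.48 (SD, n = 7) against 9.49 ± 2.74 FPKM (SD, n = 6).

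**Figure D4:**
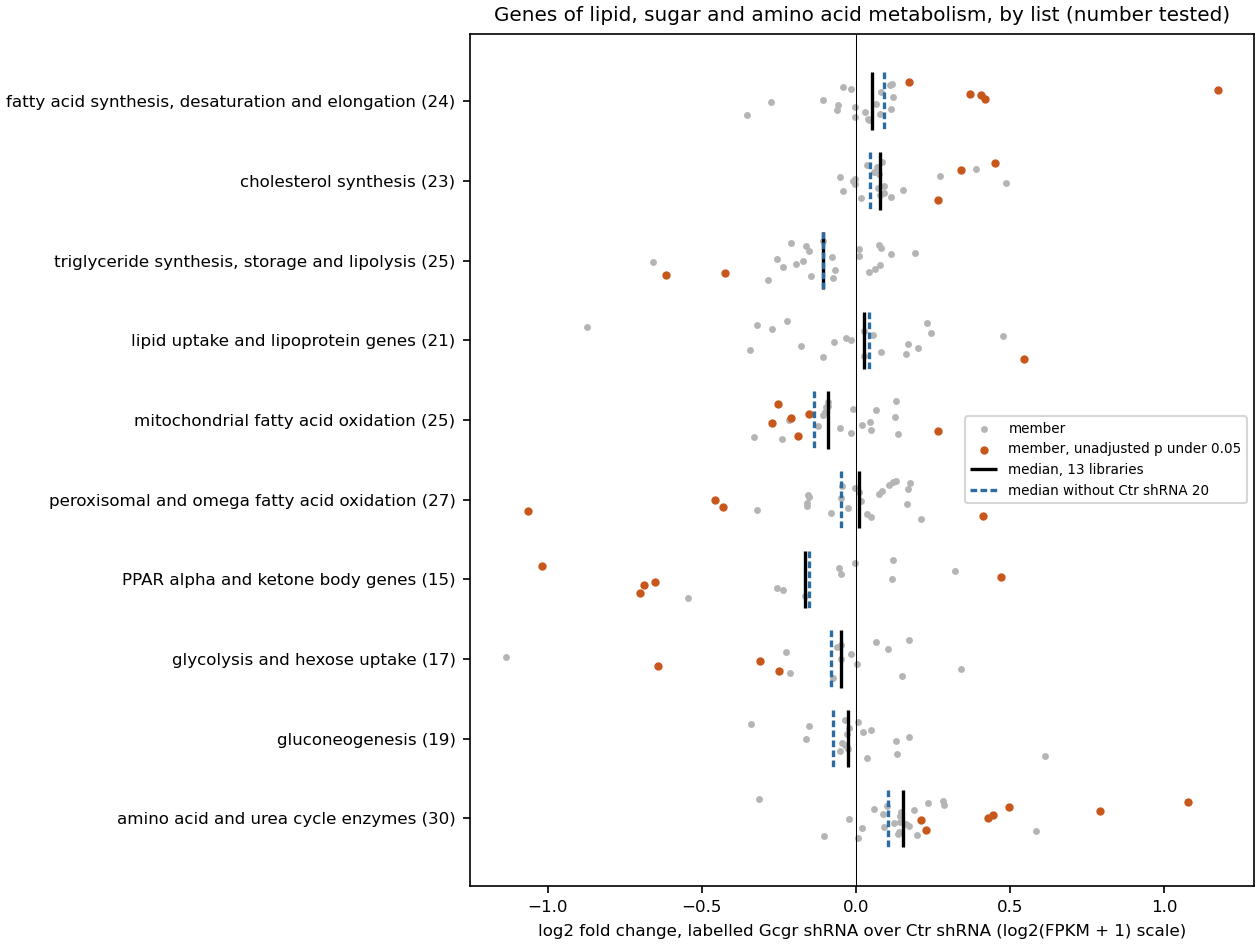
Log2 fold change on the log2(FPKM + 1) scale (labelled Gcgr shRNA over Ctr shRNA) of each tested member of 10 metabolic gene lists; points are genes, orange where the unadjusted limma p is under 0.05, black lines list medians in 13 libraries and dashed blue lines medians without Ctr shRNA 20. The medians lie between -0.17 (PPAR alpha and ketone body genes) and 0.15 (amino acid and urea cycle enzymes), and Scd1 at 1.17 is the point farthest to the right.

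Triglyceride synthesis, storage and lipolysis genes had 16 of 25 tested members below 0 and a median of -0.11. At an unadjusted p under 0.05, where 2.71% of all genes were lower and 3.28% higher, 2 were lower and none higher. Leaving out Ctr shRNA 20 gave a median of -0.11 again and 1 lower gene, Mgll. Mgll, the lipase that finishes triglyceride breakdown, was at 17.2, 14.7, 16.4, 19.5, 17.1 and 23.6 FPKM in Ctr shRNA. In the libraries labelled Gcgr shRNA it was at 15.1, 12.2, 12.4, 11.02, 10.3, 8.47 and 10.8 FPKM. Only Gcgr shRNA 13 reached into the Ctr shRNA range, and control kidneys stood at 11.7 ± 1.16 FPKM (SD, n = 4). The log2 fold change was -0.62 ± 0.12 (SE), with an adjusted p of 0.233 (limma). The triglyceride-forming enzyme gene Dgat2 differed by 0.01 ± 0.15 (SE), and Plin2, a lipid droplet coat protein, by -0.26 ± 0.27 (SE). Lipe, hormone-sensitive lipase, had a log2 fold change of -0.43 with all 13 libraries and -0.21 without Ctr shRNA 20, the library with the fat cell transcripts.

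Of the 23 cholesterol synthesis genes tested 18 lay above 0, with a median of 0.077. At an unadjusted p under 0.05, where 3.28% of all genes were higher, 3 were higher. They were Mvk, mevalonate kinase, at 4.32 against 3.24 FPKM, Insig1, a sterol sensor, at 11.3 against 7.74, and the cholesterol carrier Stard4, at 13.2 against 10.98. Mvk alone was at such a p without Ctr shRNA 20, and the median was then 0.047. Apom, an apolipoprotein that carries a sphingolipid signal, was at 41.2 ± 5.06 (SD, n = 7) against 28.2 ± 5.64 FPKM (SD, n = 6), with overlapping groups and an adjusted p of 0.266 (limma).

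No gene of sugar metabolism passed the adjusted test (limma). In gluconeogenesis none of 19 tested genes had an unadjusted p under 0.05 and the median was -0.026. Fbp1, fructose bisphosphatase, and Got2, a mitochondrial aminotransferase, were lower at such a p without Ctr shRNA 20, at -0.23 ± 0.11 and -0.13 ± 0.05 (SE), and the median was then -0.075. Its sign was not stable, since it was 0.027 without Ctr shRNA 1 and kept its direction in 16 of 22 settings. Pck1, which makes phosphoenolpyruvate, differed by -0.03 ± 0.23 (SE), and by -0.18 ± 0.22 (SE) without Ctr shRNA 20, and G6pc, which frees glucose, by -0.34 ± 0.26 (SE). On the list of glycolysis and hexose uptake 3 of 17 were lower at an unadjusted p under 0.05 and none higher, with a median of -0.050. In the fit without Ctr shRNA 20, 6 were lower, none was higher and the median was -0.083. At such a p 2.71% of all genes were lower with 13 libraries and 3.23% without that library. Pklr, the pyruvate kinase of liver and proximal tubule, averaged 16.9 ± 4.35 (SD, n = 7) against 26.8 ± 6.35 FPKM (SD, n = 6), and control kidneys 11.8 ± 1.44 (SD, n = 4). Its log2 fold change was -0.64 ± 0.18 (SE). Eno1, enolase, averaged 221 against 276 FPKM. Its close copy Eno1b, on chromosome 18 from 48045335 to 48048378, ran from 9.55 to 11.7 FPKM in the libraries labelled Gcgr shRNA and from 12.97 to 16.05 in Ctr shRNA without overlap (limma, adjusted p = 0.21), and reads of the 2 copies may not be separable. Slc2a2, a glucose transporter of the basolateral membrane, averaged 30.5 against 36.4 FPKM. Slc5a10, a sugar transporter of the proximal tubule, was at 251 to 284 FPKM in 5 Ctr shRNA libraries and 146 in Ctr shRNA 20, against 129 to 207 in the libraries labelled Gcgr shRNA. Its log2 fold change was -0.43 ± 0.16 (SE), and -0.57 ± 0.12 (SE) without Ctr shRNA 20 (limma, adjusted p = 0.74 and 0.31).

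Enzymes of amino acid breakdown and the urea cycle lay mostly above 0, in 27 of 30 tested genes, with a median of 0.15 (25 and 0.10 without Ctr shRNA 20). At an unadjusted p under 0.05, where 3.28% of all genes were higher, 7 were higher and none lower (4 and none without Ctr shRNA 20). Kmo, which hydroxylates kynurenine in tryptophan breakdown, was at 18.2, 17.9, 15.2, 19.6, 22.1 and 13.7 FPKM in Ctr shRNA. Those labelled Gcgr shRNA held 26.3, 25.4, 22.6, 22.7, 29.8, 27.9 and 22.3 FPKM, narrowly above the whole Ctr shRNA range. The log2 fold change of Kmo was 0.50 ± 0.11 (SE), with an adjusted p of 0.266 (limma). Kyat3, an aminotransferase that also acts on kynurenine and is not on that list, averaged 3.86 against 2.72 FPKM without overlap between groups (limma, adjusted p = 0.50). Gnmt, glycine N-methyltransferase, averaged 23.2 ± 5.15 (SD, n = 7) against 13.1 ± 3.48 FPKM (SD, n = 6), with control kidneys at 25.4 ± 2.20 (SD, n = 4). Hpd, an enzyme of tyrosine breakdown, ran from 3.85 to 20.6 FPKM (median 10.01) in Ctr shRNA and from 10.3 to 29.5 (median 21.3) in the libraries labelled Gcgr shRNA. This is a log2 fold change of 1.08 ± 0.32 (SE), with an adjusted p of 0.58 (limma). Prodh and Aldh4a1, consecutive enzymes of proline breakdown, averaged 40.0 and 49.7 FPKM against 29.5 and 43.0.

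Marker genes of the thick ascending limb, the distal convoluted tubule and intercalated cells lay mostly above 0. Thick ascending limb markers had the highest median of all kidney cell type lists, 0.44 (0.37 without Ctr shRNA 20). Of 14 tested 12 lay above 0 and 8 were higher at an unadjusted p under 0.05 (13 and 7 without Ctr shRNA 20). Over all genes 3.28% were higher at such a p (2.78% without that library). Cpe, carboxypeptidase E, was at 41.3, 22.9, 15.3, 39.5, 24.7 and 31.1 FPKM in Ctr shRNA and at 49.2, 48.4, 56.7, 59.0, 58.8, 53.9 and 46.3 in those labelled Gcgr shRNA. The groups did not overlap, and control kidneys were at 52.9 ± 5.71 FPKM (SD, n = 4). Its log2 fold change was 0.92 ± 0.18 (SE), with an adjusted p of 0.233 (limma). Umod, uromodulin, ran from 283 to 749 FPKM in Ctr shRNA, where Ctr shRNA 20 was lowest, and from 602 to 887 in the libraries labelled Gcgr shRNA. Slc12a1, the loop diuretic sensitive cotransporter, averaged 122 against 81.3 FPKM, and Egf, the precursor of epidermal growth factor, 63.9 against 44.8. Without Ctr shRNA 20 the log2 fold change of Umod moved from 0.52 to 0.36 and that of Slc12a1 from 0.70 to 0.46. Cldn10 and Foxq1 were the 2 members below 0 (Foxq1 was at 0.04 without Ctr shRNA 20), and no thick ascending limb marker passed after adjustment (limma, adjusted p of 0.23 or more).

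All 15 distal convoluted tubule markers lay above 0, 4 at an unadjusted p under 0.05, with a median of 0.18 (13 above 0, 4 and 0.15 without Ctr shRNA 20). For this list and the following ones, the share of all genes higher at such a p was 3.28%. Without that library 2.78% of all genes were higher and 3.23% lower. Slc12a3, the thiazide sensitive cotransporter, averaged 84.6 against 67.6 FPKM and the potassium channel gene Kcnj10 13.8 against 9.84. Intercalated cell markers had 14 of 16 above 0, 4 of them at an unadjusted p under 0.05, and a median of 0.19. Leaving out Ctr shRNA 20 gave 2 higher and 1 lower at such a p and a median of 0.13. Slc4a9, an anion exchanger of these cells, averaged 27.2 against 19.4 FPKM. Principal cell markers of the collecting duct had 6 of 12 above and 6 below 0, 2 of them higher at an unadjusted p under 0.05, and a median of 0.055 (10, 2, 1 and 0.078 without Ctr shRNA 20). Proximal tubule markers, of the cells for which the hairpin was meant, had a median of 0.13 that was 0.055 without Ctr shRNA 20. At an unadjusted p under 0.05, where 3.28% of all genes were higher, 2 of 26 were higher. They were Slc22a7, an organic anion transporter, at 54.3 ± 22.2 (SD, n = 7) against 26.6 ± 7.43 FPKM (SD, n = 6), with control kidneys at 112 ± 11.1 (SD, n = 4), and Cyp2e1, at 633 against 455 FPKM. Endothelial markers lay below 0 in 15 of 16 genes, with a median of -0.14, and without Ctr shRNA 20 in 12, with a median of -0.046. For inner medulla and papilla markers the median of -0.27 was -0.038 without that library, and for fibroblast and matrix genes -0.23 was -0.10. Whether a different share of medulla, cortex or attached tissue in the pieces plays a part in these lists was not tested.

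**Figure D5:**
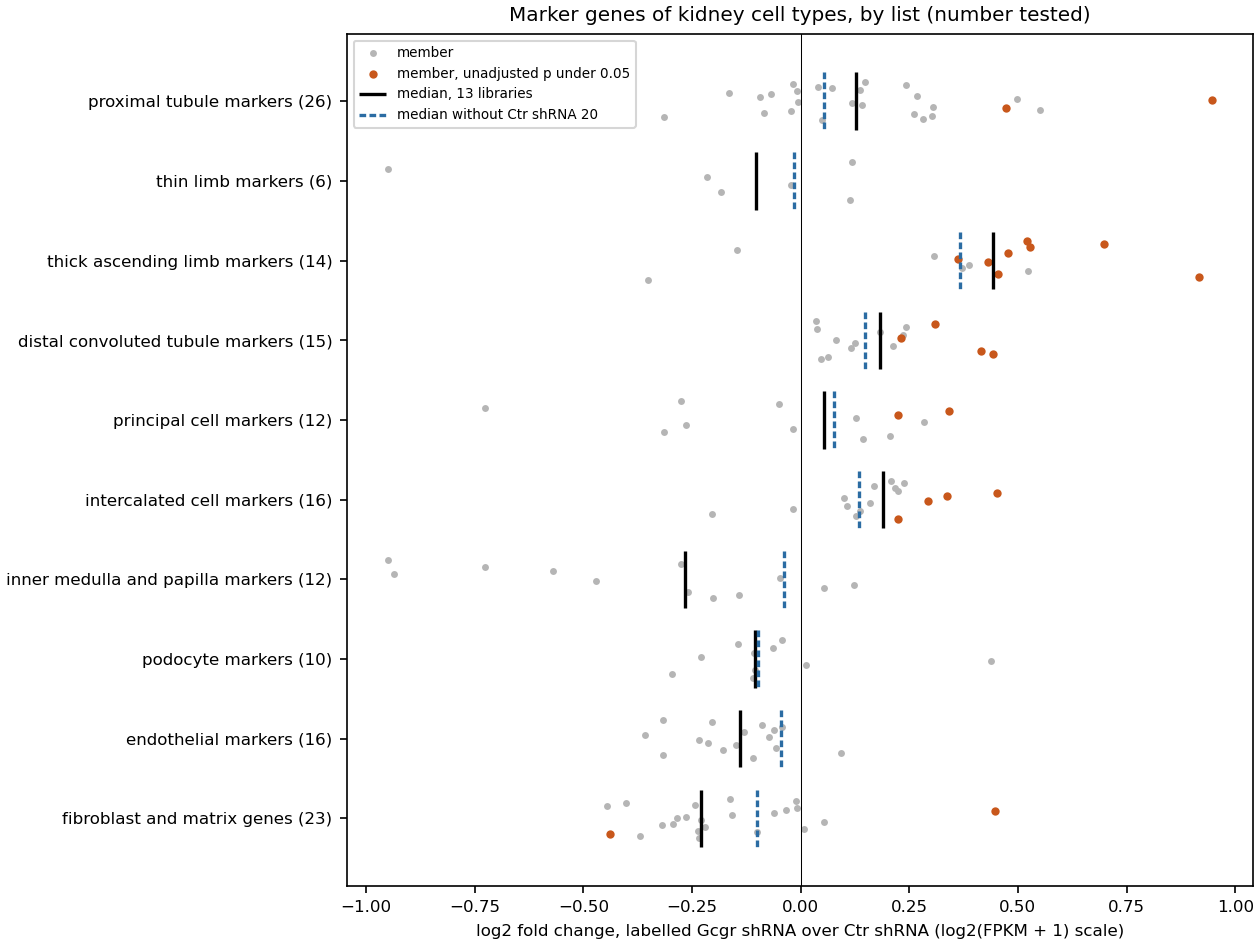
Log2 fold change on the log2(FPKM + 1) scale (labelled Gcgr shRNA over Ctr shRNA) of each tested marker of 10 kidney cell type or region lists; points are genes, orange where the unadjusted limma p is under 0.05, black lines medians in 13 libraries and dashed blue lines medians without Ctr shRNA 20. Thick ascending limb markers lie farthest to the right (median 0.44), and the medians of inner medulla, endothelial and matrix lists move toward 0 without Ctr shRNA 20.

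Genes of injury, repair and immunity gave values in both directions. Mdk, midkine, a heparin binding growth factor, was at 10.5, 13.5, 8.66, 12.3, 9.95 and 12.5 FPKM in Ctr shRNA. In the libraries labelled Gcgr shRNA it was at 15.3, 16.7, 21.7, 28.0, 17.4, 20.47 and 20.01 FPKM, all above the Ctr shRNA range, with control kidneys at 16.6 ± 3.59 (SD, n = 4). Its log2 fold change was 0.77 ± 0.13 (SE), with an adjusted p of 0.174 (limma; 0.132 without Ctr shRNA 20). Of 24 tested injury and repair genes 18 lay below 0 and 6 above, with a median of -0.16 (16, 8 and -0.053 without Ctr shRNA 20). Mdk was the single member with an unadjusted p under 0.05, and it lay against the direction of most of the list. Over all genes 3.28% were higher and 2.71% lower at such a p. The injury markers Havcr1 and Lcn2 ran from 4.84 to 32.3 and 0.838 to 56.6 FPKM in Ctr shRNA and from 2.73 to 32.4 and 2.19 to 18.0 in the libraries labelled Gcgr shRNA, with log2 fold changes of -0.51 ± 0.52 and -1.01 ± 0.65 (SE).

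C3, the central complement component, was at 46.4, 47.1, 52.2, 45.5, 22.05 and 31.3 FPKM in Ctr shRNA and at 33.5, 21.4, 17.2, 12.98, 10.6, 14.6 and 23.8 in those labelled Gcgr shRNA. The groups overlapped through Ctr shRNA 19 and 20 and Gcgr shRNA 13 and 35, and control kidneys held 2.51 ± 0.467 FPKM (SD, n = 4). The log2 fold change was -1.08 ± 0.25 (SE), with an adjusted p of 0.332 (limma), and -1.15 ± 0.27 (SE) without Ctr shRNA 20. Of the 18 complement and acute phase genes tested none was higher and no other was lower at an unadjusted p under 0.05, and their median was 0.085. The further complement genes C4b and Cfi were higher at such a p without Ctr shRNA 20, as were 2.78% of all genes. C4b and Cfi lay at 0.42 ± 0.16 and 0.29 ± 0.11 (SE), and the median was then 0.12. The median was -0.054 without Ctr shRNA 19. Tlr2, a receptor for microbial lipoproteins, averaged 2.07 against 3.26 FPKM. The macrophage growth factor receptor gene Csf1r averaged 10.6 against 7.71 FPKM, with control kidneys at 15.5 ± 1.07 (SD, n = 4). Cd68, another macrophage marker, lay the other way at 2.89 against 3.60 FPKM. Of 14 macrophage and monocyte markers tested 10 lay above 0 and 4 below, with a median of 0.066 (-0.080 without Ctr shRNA 19). Csf1r alone of them had an unadjusted p under 0.05, where 3.28% of all genes were higher. None of the 31 interferon response genes tested had an unadjusted p under 0.05. Of them 17 lay above 0 and 14 below, and without Ctr shRNA 20 these counts were 28 and 3. Their median was 0.018 (0.10 without Ctr shRNA 20, and -0.023 after rescaling to the same total). The sign of that median was not stable, since it was -0.086 without Ctr shRNA 19 and kept its direction in 14 of 22 settings. Col5a2, a fibrillar collagen chain, averaged 1.79 ± 0.390 (SD, n = 7) against 1.03 ± 0.119 FPKM (SD, n = 6), while Col1a1 differed by -0.40 ± 0.43 (SE) and the fibronectin gene Fn1 by -0.26 ± 0.21 (SE).

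The remaining genes with the smallest p values in either fit did not pass (limma, adjusted p from 0.17 to 0.46 with 13 libraries). Pbx4, a homeodomain transcription factor gene, was at 1.67 to 2.33 FPKM in Ctr shRNA and 0.617 to 1.32 in the libraries labelled Gcgr shRNA without overlap, with a log2 fold change of -0.59 ± 0.10 (SE). Igf2bp2, an RNA binding protein gene, averaged 1.48 against 2.31 FPKM, Adam11 3.08 against 5.48 and the zinc finger gene Zfp51 1.79 against 2.42. On the other side, Zbtb22, another zinc finger gene, averaged 10.7 against 8.15 FPKM without overlap, Rdh16f2, of the retinol dehydrogenase family, 104 against 62.5, the proton pump gene Atp4a 14.1 against 9.72, and Izumo4 3.48 against 2.50. Dnajb13 averaged 0.546 against 1.65 FPKM, with Gcgr shRNA 13 at 1.68 inside the Ctr shRNA range of 1.31 to 2.27. It spans 100501716 to 100514960 of chromosome 7 on the minus strand and so overlaps the end of Ucp2, which spans 100493337 to 100502020 on the plus strand, so their reads cannot be told apart at that end. The mitochondrial ribosomal RNA mt-Rnr1 averaged 765 ± 268 (SD, n = 7) against 1550 ± 527 FPKM (SD, n = 6), and the small nucleolar RNA gene Snord37 gave 2 reads in all against 15. Ribosomal and short RNA depends on how a library was made, and its part in the other differences was not tested.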

How the data were processed

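Per the labels' protocols, Trizol RNA went into a SMARTer mRNA kit. FPKM values were deposited by the authors in 1 table, beside each gene's length and position, per the file headers. GRCm38 is listed per the submitters' processing notes. The sources used here name no aligner, counter, annotation release or strand setting, so values of near-identical copies and of overlapping or antisense genes are uncertain. Of 42741 gene IDs found in GENCODE M21 (GRCm38), 98.1% had the same coordinates. The table held 42794 complete lines, and 1 incomplete line was left out. Low FPKM values times gene length were whole multiples of a step in 100% of cases (tolerance 0.05 of a step, up to 200 steps), and these steps gave the reads quoted.

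Genes with FPKM of 1 or more in at least 4 of the 13 libraries (12973) were tested on log2(FPKM + 1), where changes of low genes come out too small, by limma-trend (limma 3.58.1, R 4.3.3). A mean per group was fitted, p-values were adjusted by Benjamini-Hochberg over all 12973 genes, and the threshold was 0.05. The fit was repeated on the same genes without Ctr shRNA 20. Gcgr was also tested by an exact permutation of the libraries. The method was tested on simulated data. Alternatives were the pseudocount, the filter, 2 scalings, sample weights, limma voom on recovered reads, all 3 groups in the fit and leaving out each library. No replicate number is shared between the groups, and no library was averaged with another.

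The comparison, the 52 gene lists (934 genes, 801 tested) and the tests were chosen with earlier results of these data known, and support nothing by themselves. Named genes were Gcgr and Gcg, the 10 per direction with the largest change among those that passed in each fit, filled up by smallest p, and 2 members per list. Further members were named after their values were seen, and a few genes are not reported here. Lists are given by counts and medians, with no test of a list.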

Additional observations from a re-analysis of the deposited data

Results flagged for a closer look

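Among 224 groups of libraries checked for 1 value far from its neighbours by Dixon's test, 22 stood out, and chance marks about 1 in 20 groups. In 10 of them the library was Ctr shRNA 20. That library was already known to hold fat and urothelial transcripts, and the genes checked included markers of fat cells, urothelium and medulla. For these markers the rate of 1 in 20 is no comparison, and their flags are no separate finding. In Ctr shRNA 20 Lipe was at 19.47 FPKM (6.372 to 9.906 in the other 5), Fabp4 at 93.68 (9.368 to 16.6) and Plin4 at 7.514 (0.7922 to 1.568), all 3 fat cell genes. The urothelial genes Psca and Sprr1a were at 132.2 (0.4513 to 12.44) and 151.2 (1.917 to 15.53) in it. The medullary genes Slc14a2, Akr1b3 and Cryab were at 75.25 (0.03714 to 18.53), 161.6 (7.271 to 14.37) and 305 FPKM (50.8 to 92.91). S100a6 was at 119.4 FPKM in the same library, and Slc5a10 was low there, at 145.5 (251 to 283.9).

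Gcgr shRNA 13 stood apart in 4 genes. Cyp4a14 was at 513.5 FPKM in it against 83.32 to 219.4 in the other 6, Acot3 at 9.52 against 5.317 to 6.963, Dnajb13 at 1.676 against 0.07251 to 0.726, and Slc22a19 was low at 7.622 against 9.466 to 10.81. Within the libraries labelled Gcgr shRNA, library 35 had the highest mt-Rnr1, 1328 FPKM (550.3 to 801.6 in the other 6), Ddit3, 13.16 (7.556 to 8.943), and Hsph1, 36.68 (12.23 to 22.5), each below the highest Ctr shRNA library. S100a9, a neutrophil gene, was at 12.1 FPKM in Gcgr shRNA 31, and Nr4a1, an immediate early gene, at 16.23 in Gcgr shRNA 15. Ttr was at 305.5 FPKM in Gcgr shRNA 34. Prlr stood out in both groups, at 2.428 in Ctr shRNA 19 and at 3.594 in Gcgr shRNA 29.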

How the results depend on the processing

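No paired analysis was possible because the groups share no replicate number. Of the 22 other settings tried for the 13 libraries, Cyp24a1 passed in 21 with log2 fold changes of 2.03 to 2.37, and missed when all 3 groups were fitted (adjusted p = 0.0581, limma), which left 0 genes changed, with 532 higher and 422 lower at an unadjusted p under 0.05. Leaving out each library in turn gave 1 to 2 genes, with Tstd3 added without Ctr shRNA 20 and Dnajb13 (adjusted p = 0.0418, limma) without Gcgr shRNA 13. Without Ctr shRNA 20 and Gcgr shRNA 31 together 1 gene passed. In the fit without Ctr shRNA 20 the 2 genes became 1 with no filter on low values, 3 with a mean FPKM of 5 or more, with sample weights or with all 3 groups, and 1 to 2 on leaving out each further library. Tstd3 was lost with no filter, on rescaling to the same total, under voom and with 3 groups; Ndrg2 passed at a mean FPKM of 5, on rescaling, with weights, under voom and with 3 groups, and Scd1 with 3 groups. The cause was not tested. The difference in Gcgr kept its direction and its side of the threshold in all 16 settings, at 0.28 to 0.46. Of the 113 named genes tested 110 kept their sign in every setting. Nearly all of these were picked by change or smallest p in these same libraries, which the settings largely share. A kept sign was therefore likely beforehand and supports nothing by itself. Scaling moved the median of all genes to no lower than -0.041. Low genes such as Snord37 (2 and 15 reads) are limited by depth.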

Other observations

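Genes outside the comparisons above gave a few further values, none of which passed the adjusted test (limma, adjusted p of 0.38 or more). Prlr, the prolactin receptor, averaged 2.41 ± 0.544 FPKM (SD, n = 7) in the libraries labelled Gcgr shRNA and 1.29 ± 0.595 (SD, n = 6) in Ctr shRNA, with control kidneys at 0.748 ± 0.108 (SD, n = 4). Ttr, transthyretin, a carrier of thyroid hormone and retinol binding protein, averaged 207 ± 48.3 against 121 ± 45.7 FPKM, with control kidneys at 70.4 ± 4.51. Car9, a carbonic anhydrase, averaged 4.17 ± 1.89 against 2.20 ± 0.712 FPKM. Ugt1a10, whose reads may be shared with other Ugt1a genes, averaged 2.93 ± 2.03 against 6.36 ± 2.29 FPKM, and Tsc22d3, a glucocorticoid induced gene, 11.4 ± 2.20 against 18.0 ± 6.84. All 10 heat shock genes tested lay below 0, with a median of -0.21, and 9 did without Ctr shRNA 20, with a median of -0.18. None had an unadjusted p under 0.05 in either fit.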
